A study of Mus musculus with 9 samples.

Results

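The gene set was Pdk4 with the kinases, phosphatases and subunits of the pyruvate dehydrogenase complex. Pdk4 was selected on its rise in diabetic podocytes in these same arrays, and the others were added as its isoforms and targets. The 10 genes Pdk1, Pdk2, Pdk3, Pdk4, Pdp1, Pdp2, Pdha1, Pdhb, Pdhx and Dlat are 10 of the 18193 genes named by the platform table. They were matched by exact symbol and held 18 of the 45101 probe sets, and all 18 are described. Podocytes are the epithelial cells that cover the glomerular capillaries. The OVE26 group comprised 5 diabetic mice of genotype OVE-GFP on the FVB background, which join OVE26 with a podocyte eGFP transgene. OVE26 carries a calmodulin transgene driven by an insulin promoter in pancreatic beta cells and develops early insulin-deficient diabetes. The FVB group comprised 4 normal mice labelled wild type on the same background. Both groups were aged 3 to 4 months, and each array held the podocytes of 1 mouse. The labels do not state the promoter that drives eGFP, the way the FVB podocytes came to fluoresce, or the sex and handling day of each mouse. Glomeruli were collected with magnetic beads and dissociated with trypsin, and fluorescent cells were sorted, so other cells could pass with them.

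Pyruvate dehydrogenase is the mitochondrial complex that turns pyruvate into acetyl-CoA and so links glycolysis to the tricarboxylic acid cycle. Pyruvate dehydrogenase kinases phosphorylate its E1 alpha subunit and switch the complex off, and pyruvate dehydrogenase phosphatases switch it on again. Pdk4 is known as the fasting and diabetes isoform in muscle, heart, liver and kidney, where its transcript is induced by fatty acids through PPAR receptors, by glucocorticoids and by FoxO factors, and is held down by insulin. The arrays measured transcripts only, and neither phosphorylation nor enzyme activity was recorded.

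The deposited intensities were taken to log2, and each level below is a log2 intensity of 1 probe set. Array medians lay between 5.07 and 5.15. Pairs of arrays correlated at 0.960 to 0.985 within OVE26, at 0.980 to 0.989 within FVB and at 0.964 to 0.984 between the groups. The podocyte markers Podxl and Synpo were bright on all arrays, with mean levels of 12.99 in OVE26 and 13.10 in FVB for Podxl, and of 12.89 in OVE26 and 13.03 in FVB for Synpo. Levels differed over the 25 measured podocyte markers, and the lowest in FVB was Trpc6, at 6.05 in OVE26 and 5.15 in FVB. Differences were tested with limma over 45037 probe sets with Benjamini-Hochberg adjustment and a threshold of 0.05. This called 88 probe sets, or 0.195%, higher and 34, or 0.0755%, lower in OVE26, so 72.1% of the calls were higher. With arrays centred on ribosomal protein genes the calls were 70 higher and 83 lower, or 45.8% higher. Without adjustment, p was under 0.05 for 6.59% of probe sets in the higher direction and 7.14% in the lower one. Without regard to any test, 48.9% of probe sets had an OVE26 mean above the FVB mean. All 5 OVE26 arrays lay above all 4 FVB arrays for 2.67% of probe sets and below them for 2.78%.

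The DNA just upstream of each kinase gene is shown because the 4 isoforms are read side by side below. Each line is the 250 bases before the outermost annotated start, 5′ to 3′ on the strand of the gene, from RefSeq on build GRCm38.p6. Pdk4 is at chr6:5496279-5496528 on the minus strand, Pdk1 at chr2:71872974-71873223 on the plus strand, Pdk2 at chr11:95041372-95041621 on the minus strand and Pdk3 at chrX:93832151-93832400 on the minus strand. Capitals mark matches to any of 8 short motifs, searched on both strands.
Pdk4: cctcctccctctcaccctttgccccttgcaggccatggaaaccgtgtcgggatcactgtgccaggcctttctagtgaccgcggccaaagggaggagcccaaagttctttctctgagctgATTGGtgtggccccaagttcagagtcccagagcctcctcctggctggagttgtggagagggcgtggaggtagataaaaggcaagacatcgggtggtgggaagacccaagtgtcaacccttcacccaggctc
Pdk1: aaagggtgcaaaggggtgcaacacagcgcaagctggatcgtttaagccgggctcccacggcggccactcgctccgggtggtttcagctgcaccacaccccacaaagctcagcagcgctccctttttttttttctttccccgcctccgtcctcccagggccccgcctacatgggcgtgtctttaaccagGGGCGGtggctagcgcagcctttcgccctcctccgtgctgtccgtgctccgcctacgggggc
Pdk2: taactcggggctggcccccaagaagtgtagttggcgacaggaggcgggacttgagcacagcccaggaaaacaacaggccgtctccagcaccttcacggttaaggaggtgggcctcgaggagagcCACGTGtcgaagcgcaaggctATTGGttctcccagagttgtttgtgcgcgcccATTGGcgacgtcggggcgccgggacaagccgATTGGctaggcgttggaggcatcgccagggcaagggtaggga
Pdk3: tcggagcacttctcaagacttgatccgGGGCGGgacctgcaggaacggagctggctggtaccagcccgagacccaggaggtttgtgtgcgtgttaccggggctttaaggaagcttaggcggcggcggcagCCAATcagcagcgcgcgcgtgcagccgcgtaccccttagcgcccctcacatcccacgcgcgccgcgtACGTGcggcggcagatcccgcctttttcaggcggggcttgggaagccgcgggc

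The Pdk4 sequence differed from the other 8 members found in the table in base composition. It was 58.8% G or C with 6 CpG dinucleotides, where the others were 60.8% to 68.4% G or C with 11 to 29 CpG dinucleotides. All promoters of the table had medians of 52.4% and 6. The capitals in the Pdk4 line mark 1 CCAAT box, which lies on the opposite strand. The same box was also in the sequences of Pdk2, Pdk3, Pdp2 and Pdhb, and in 33.8% of all 32851 promoter sequences. The GC box GGGCGG was in Pdk1, Pdk3, Pdp2, Pdhb, Pdhx and Dlat, and in 32.7% of all. The letters ACGTG, a form of the hypoxia response core, were in Pdk2, Pdk3, Pdp2 and Pdhb, and in 16.6% of all. They overlap themselves when read on both strands of a palindrome, and other forms of the core were not searched. No member sequence held TATAAA (12.4% of all), the FoxO site GTAAACA (3.17%), the glucocorticoid receptor half-site AGAACA (16.1%), the estrogen-related receptor site TCAAGGTCA (0.387%) or the AGGTCA direct repeat with 1 base between (0.0335%). A match is a description of the letters and not a binding site, and sites outside these windows were not searched. Pdp1 is named only.

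Pdk4 was far brighter in every diabetic mouse than in any normal mouse. Its 1 probe set, 1417273_at, read 8.90, 9.65, 8.69, 9.97 and 8.20 in OVE26 mice 1 to 5, against 5.19, 6.16, 6.30 and 5.45 in FVB mice 1 to 4. On the deposited linear scale these were intensities of 477, 802, 414, 1000.2 and 294 in OVE26, against 36.4, 71.6, 78.9 and 43.6 in FVB. OVE26 4 was the highest of the diabetic mice and OVE26 5 the lowest, and the groups did not overlap. The means were 9.08 ± 0.72 in OVE26 (SD, n = 5) and 5.77 ± 0.54 in FVB (SD, n = 4), a difference of 3.31 or 9.90-fold. The lowest OVE26 mouse was still 1.90 above the highest FVB mouse, a 3.72-fold ratio of intensities. The diabetic mice differed among themselves by up to 1.77 and the normal mice by up to 1.12. No test is given for Pdk4 because this contrast selected it. In sorted bulk RNA, more cells that carry a transcript and more of it per cell cannot be told apart.

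**Figure D1:**
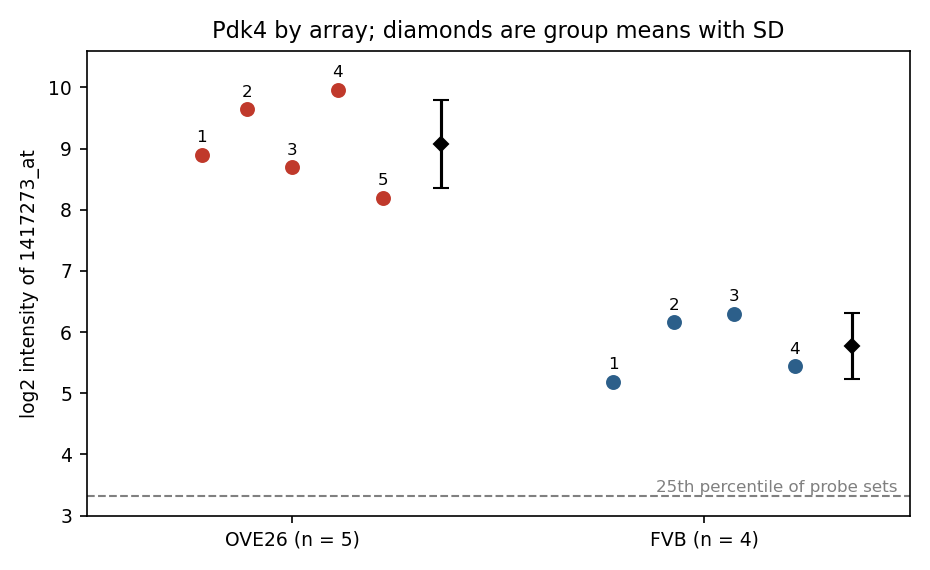
Pdk4 level on each array (log2 intensity, probe set 1417273_at), with OVE26 on the left and FVB on the right; each numbered point is 1 mouse, diamonds with whiskers are the mean and SD, and the dashed line is the 25th percentile of all probe sets. The 5 OVE26 mice lie between 8.20 and 9.97, all above the 4 FVB mice at 5.19 to 6.30.

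The other kinase isoforms differed far less. Pdk1, an isoform known as a hypoxia-inducible factor target, has 4 probe sets. Probe set 1435836_at read 6.05, 6.56, 6.52, 6.04 and 6.08 in OVE26 mice 1 to 5, against 6.03, 6.04, 5.34 and 5.83 in FVB mice 1 to 4. OVE26 2 and OVE26 3 were the high arrays and FVB 3 the low one, and OVE26 4 and FVB 2 had the same value. The difference was 0.44 (95% interval 0.02 to 0.85), and limma's adjusted p was 0.338. Probe set 1423748_at read 5.90, 5.92, 5.94, 6.50 and 6.13 in OVE26, against 5.56, 5.90, 5.64 and 5.43 in FVB. Here OVE26 4 was highest, and OVE26 1 and FVB 2 had the same value. The difference was 0.45 (95% interval 0.10 to 0.79), with a limma adjusted p of 0.247. The highest Pdk1 array was thus OVE26 2 for the first probe set and OVE26 4 for the second.

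The remaining Pdk1 probe sets were dim. Probe set 1434974_at had means of 3.32 ± 0.18 in OVE26 and 3.21 ± 0.32 in FVB, where the 25th percentile of all probe sets was 3.31 in OVE26 and 3.32 in FVB. Its difference was 0.11, with a limma adjusted p of 0.824. Probe set 1423747_a_at read 3.28, 3.02, 4.41, 3.66 and 1.77 in OVE26, against 1.98, 2.26, 2.07 and 2.14 in FVB. OVE26 5 lay below every FVB mouse and the other 4 lay above. Both group means were below the 25th percentile, so no fold is given for this probe set, whose limma adjusted p was 0.284.

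Pdk2 is a widely expressed isoform that is also present in kidney. It read 10.24, 10.30, 9.43, 9.64 and 9.89 in OVE26 mice 1 to 5, against 10.10, 10.18, 10.20 and 9.79 in FVB mice 1 to 4. The diabetic mice lay on both sides of the normal ones, with OVE26 3 lowest and OVE26 2 highest. The means were 9.90 ± 0.38 in OVE26 and 10.07 ± 0.19 in FVB, a difference of -0.17 (95% interval -0.60 to 0.27) with a limma adjusted p of 0.776. Pdk3, the X-linked isoform, read 6.74, 6.85, 6.91, 6.54 and 6.61 in OVE26, against 6.54, 5.94, 6.65 and 6.18 in FVB. OVE26 4 and OVE26 5 lay among the values of FVB, where FVB 3 was highest. The means were 6.73 ± 0.15 in OVE26 and 6.33 ± 0.33 in FVB, a difference of 0.40 (95% interval 0.04 to 0.76) with a limma adjusted p of 0.309.

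The phosphatases that reverse the kinases did not pass the test. Pdp1 is the catalytic subunit of the calcium-sensitive phosphatase. Its probe set 1434228_at read 6.50, 6.85, 7.08, 6.98 and 6.64 in OVE26, against 7.01, 6.46, 6.91 and 6.81 in FVB. The groups were interleaved, with a difference of 0.01 (95% interval -0.35 to 0.36) and a limma adjusted p of 0.990. Its second probe set 1438201_at ran from 5.34 to 5.89 in OVE26 and from 5.22 to 5.99 in FVB, with a difference of -0.01 and a limma adjusted p of 0.987. Pdp2 is the insulin-sensitive phosphatase. It read 4.83, 4.63, 5.67, 5.00 and 5.40 in OVE26, against 5.42, 5.17, 5.51 and 5.74 in FVB. OVE26 1, 2 and 4 lay below every FVB mouse, and OVE26 3 lay above all of them but FVB 4. The means were 5.11 ± 0.42 in OVE26 and 5.46 ± 0.24 in FVB, a difference of -0.35 (95% interval -0.84 to 0.13) with a limma adjusted p of 0.521.

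The subunits of the complex itself were close to level between the groups. Pdha1 encodes the E1 alpha subunit that the kinases phosphorylate. Its probe set 1418560_at read 9.85, 9.74, 9.78, 9.93 and 9.95 in OVE26, against 9.63, 9.78, 9.67 and 9.71 in FVB. The whole spread within a group was 0.21 in OVE26 and 0.14 in FVB, and FVB 2 shared its value with OVE26 3. The difference was 0.15 (95% interval -0.06 to 0.36), with a limma adjusted p of 0.542. Its probe set 1449137_at had means of 9.21 ± 0.09 in OVE26 and 9.12 ± 0.09 in FVB, with a limma adjusted p of 0.742. Pdhb, the E1 beta subunit, read 9.88, 10.16, 9.93, 9.85 and 9.85 in OVE26 with probe set 1416090_at, against 9.88, 9.93, 9.71 and 9.97 in FVB. OVE26 2 stood above the other 8 mice, and without it the diabetic mice lay within the range of the normal ones. The difference was 0.06 (95% interval -0.18 to 0.31), with a limma adjusted p of 0.860. Its probe set 1448214_at ran from 4.69 to 4.77 in OVE26 and from 4.54 to 4.72 in FVB, with a limma adjusted p of 0.752.

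Dlat, the E2 core that carries the acetyl group on lipoate, has 3 probe sets. Probe set 1426265_x_at read 8.89, 9.19, 8.67, 8.74 and 8.53 in OVE26, against 8.71, 8.74, 8.55 and 8.64 in FVB. OVE26 2 was highest and OVE26 5 lowest of all 9 mice. The difference was 0.15 (95% interval -0.17 to 0.46), with a limma adjusted p of 0.709. Probe set 1426264_at had a difference of 0.17 and a limma adjusted p of 0.611, and 1452005_at a difference of 0.07 and a limma adjusted p of 0.862. Pdhx, which tethers the E3 subunit to the core, read 6.04, 5.54, 5.93, 6.32 and 6.13 in OVE26, against 5.67, 5.88, 5.81 and 5.85 in FVB. OVE26 2 was the lowest of all mice, and the other 4 diabetic mice lay above every normal mouse. The difference was 0.19 (95% interval -0.15 to 0.53), with a limma adjusted p of 0.647.

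**Figure D2:**
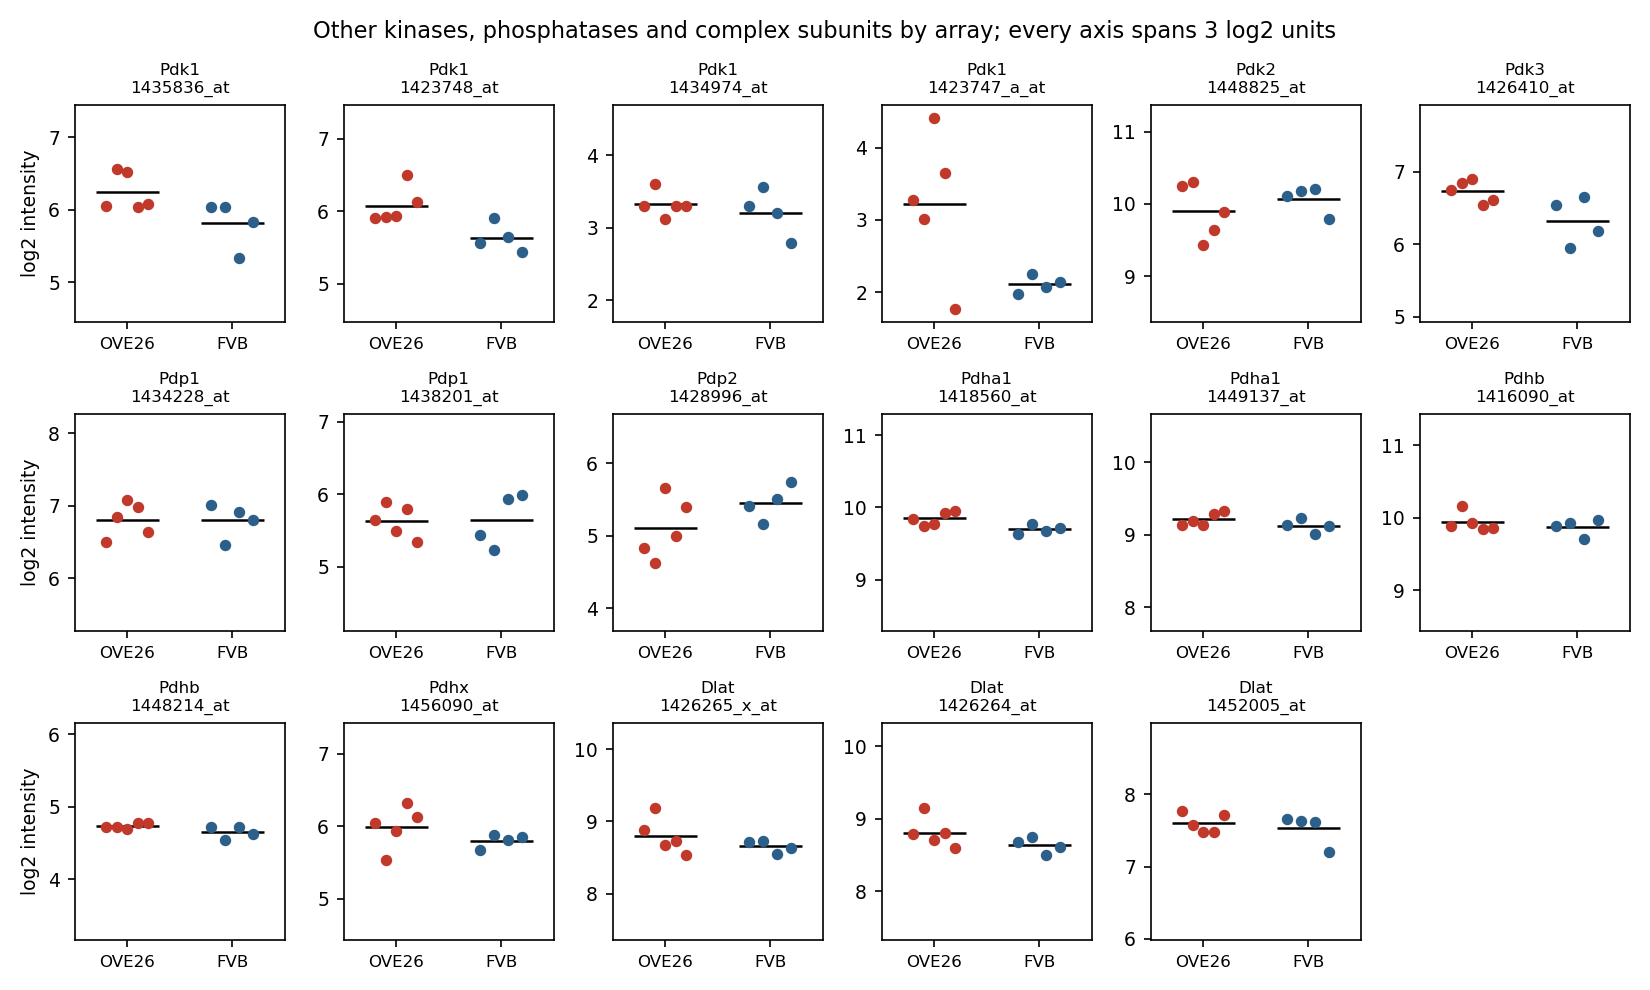
Level on each array (log2 intensity) of the 17 probe sets other than Pdk4, 1 panel each, with OVE26 left of FVB; points are mice in the order of their numbers, lines are group means, and every axis spans the same width. In every panel the groups overlap or touch, as for Pdk1 1435836_at, where OVE26 4 and FVB 2 share the value 6.04.

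Over the 17 probe sets other than Pdk4, 0 passed limma's adjusted threshold in either direction, and their adjusted p ran from 0.247 to 0.990. At an unadjusted p under 0.05, 4 of the 17, or 23.5%, were higher and 0 were lower. These 4 were Pdk3 and the Pdk1 probe sets 1435836_at, 1423748_at and 1423747_a_at, so 3 of them share 1 gene. In 14 of the 17, or 82.4%, the OVE26 mean lay above the FVB mean, and 0 of the 17 had groups without overlap. The median difference was 0.11, beside -0.01 over all probe sets. When arrays were instead centred on ribosomal protein genes, which lowers every difference by 0.13, 8 of the 17 were above 0 and the medians were -0.01 for the 17 and -0.13 for all probe sets. Leaving out the dim 1423747_a_at, the 95% intervals of the other 16 all lay between -0.84 and 0.85, which is 0.56- to 1.81-fold. That range joins the outermost bounds, and single intervals could be much narrower, as for Pdha1 1418560_at at -0.06 to 0.36. With 5 and 4 arrays, differences inside a probe set's own interval were not excluded. Pdk1, Pdp1, Pdha1, Pdhb and Dlat have several probe sets, which share their RNA and are not replicates of a mouse. The other 5 genes rest on 1 probe set each.

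**Figure D3:**
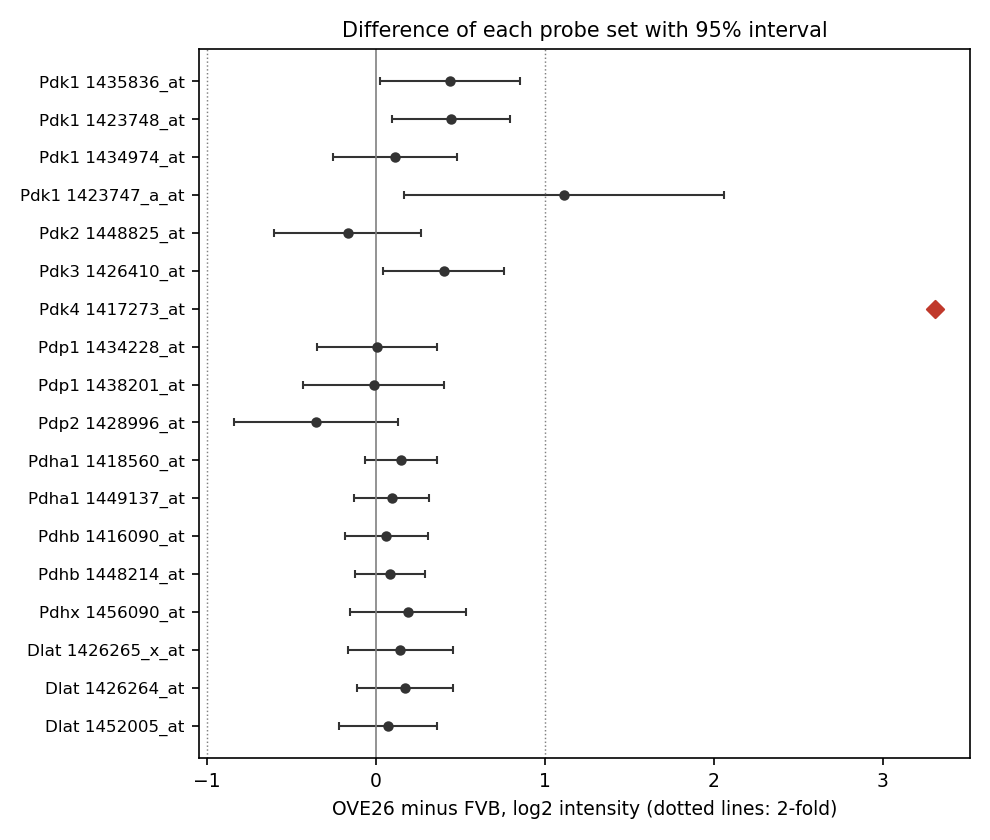
Difference in mean log2 intensity, OVE26 minus FVB, for all 18 probe sets, with limma's 95% interval for the 17 other than Pdk4; Pdk4 is drawn without an interval because it was selected on this contrast. Pdk4 lies at 3.31, and apart from the dim 1423747_a_at the upper ends of the other intervals do not exceed 0.85.

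For related pathways 1 probe set a gene was read, the brightest, from gene lists written out for this purpose. The lists were chosen with earlier results of these data known, so the counts in them are descriptions. Over the 18193 genes read this way 0.291% were called higher and 0.066% lower by limma, and 52.6% had a difference above 0. Groups did not overlap with OVE26 above for 3.64% of genes and with OVE26 below for 2.62%. The median difference over these genes was 0.01.

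The steps around the complex showed no call by limma with all arrays and every probe set. Of 19 measured genes of pyruvate handling, 0 were called, 11 had a difference above 0, and the median difference was 0.01. Ldha, the lactate dehydrogenase subunit that favours lactate formation, was at 10.42 ± 0.13 in OVE26 and 9.87 ± 0.11 in FVB, with groups that did not overlap and a limma adjusted p of 0.0790. It passed with averaged probe sets (0.0420) and with a variance trend (0.0347). Ldhb, the subunit that favours pyruvate formation, was at 12.08 ± 0.14 in OVE26 and 11.22 ± 0.54 in FVB, with a limma adjusted p of 0.144, and of 0.0265 without FVB 2. FVB 2 was the FVB array with the highest distal and parietal marker scores, at -0.01 and -0.13. It alone in that group had the sex-linked transcript Xist above the Y-linked mean, so leaving it out also shifts these levels in FVB. Slc16a7, a carrier of pyruvate and lactate, was at 8.78 ± 0.28 in OVE26 and 7.84 ± 1.03 in FVB, with an adjusted p of 0.348. Without FVB 2 its difference was 1.43 with an adjusted p of 0.0272, and with the distal marker score as a term in the fit it was -0.39. Gpt, an alanine transaminase, was at 6.80 ± 0.35 in OVE26 and 6.35 ± 0.18 in FVB, with an adjusted p of 0.311, and its difference of 0.45 was 0.15 with averaged probe sets. The mitochondrial pyruvate carrier gene Mpc1 had a difference of 0.53 with an adjusted p of 0.391. Dld, the E3 subunit that pyruvate dehydrogenase shares with its sister complexes, had one of -0.08 with an adjusted p of 0.866. Pdpr, the regulatory subunit of the phosphatase, had one of -0.09 with an adjusted p of 0.815.

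The sister complexes that oxidise other keto acids gave a similar picture. Of 8 measured genes, 0 were called by limma, 6 had a difference above 0, and the median difference was 0.11. Ogdh and Dlst, the E1 and E2 subunits of the 2-oxoglutarate dehydrogenase complex, each had a difference of 0.27, with limma adjusted p of 0.402 and 0.427, but with averaged probe sets these were 0.17 for Ogdh and -0.0069 for Dlst. Dhtkd1, the E1 subunit of the 2-oxoadipate complex, had one of 0.57 with an adjusted p of 0.439. Bckdha, the E1 alpha subunit of the branched-chain complex, had one of -0.14 with an adjusted p of 0.660. Bckdk, the kinase of the branched-chain keto acid complex and so the counterpart of Pdk4 there, was at 5.70 ± 0.15 in OVE26 and 5.68 ± 0.26 in FVB. Ppm1k, its phosphatase, was at 8.14 ± 0.22 in OVE26 and 8.19 ± 0.33 in FVB. Of 14 genes of the tricarboxylic acid cycle, 0 were called by limma, and all 14 had a difference above 0, with a median of 0.13. With quantile normalization 13 were above 0, and with ribosomal centring 7 were, with a median of 0.01. Sdhb, a subunit of succinate dehydrogenase, was at 9.42 ± 0.10 in OVE26 and 9.03 ± 0.14 in FVB without overlap, and its adjusted p was 0.166. Idh2, the mitochondrial NADP-linked isocitrate dehydrogenase, had a difference of 0.44 and an adjusted p of 0.201, but one of 0.081 with averaged probe sets. Suclg2, a subunit of succinyl-CoA ligase, and Fh1, fumarase, had differences of 0.41 and 0.38, with adjusted p of 0.201 and 0.248. Ribosomal protein genes, used for the centring, had 15 of 18 differences above 0 and a median of 0.16. Of these 18, 2 were below the 25th percentile in both groups, and whether the list is stable between the groups was not tested.

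Among 27 genes of fatty acid oxidation and PPAR targets, the class to which Pdk4 is usually assigned, 0 were called by limma and 25 had a difference above 0. In 8 of the 27 the groups did not overlap, all with OVE26 above, beside 3.64% of all genes, and the median difference was 0.30. Other lists held such genes too, with 3 of 14 glucocorticoid targets, 3 of 19 hypoxia response genes and 4 of 18 ribosomal protein genes. There were 2 of 14 in the tricarboxylic acid cycle and 1 of 19 in pyruvate handling. Of 18 genes of insulin signalling and FoxO targets, 2 lay above without overlap and 2 below. With ribosomal centring 20 of the 27 were above 0, and the median of 0.18 compared with -0.11 over all genes. Angptl4, a secreted inhibitor of lipoprotein lipase and a PPAR target, was at 5.90 ± 0.22 in OVE26 and 5.04 ± 0.23 in FVB, with a limma adjusted p of 0.0605. When limma was fitted on 1 probe set a gene, the adjusted p of Angptl4 was 0.0403. Acaa2, the last enzyme of mitochondrial beta-oxidation, was at 8.59 ± 0.16 in OVE26 and 7.72 ± 0.37 in FVB, with an adjusted p of 0.0846, and of 0.0273 without FVB 2. Cpt1a, which admits fatty acids to mitochondria, was at 9.54 ± 0.15 in OVE26 and 9.04 ± 0.06 in FVB, with an adjusted p of 0.101. Plin2, a lipid droplet coat protein, had a difference of 0.60 and an adjusted p of 0.120. Acot1, an acyl-CoA thioesterase, was at 6.92 ± 0.81 in OVE26 and 5.42 ± 0.03 in FVB, with an adjusted p of 0.122. Cyp4a14, a fatty acid hydroxylase known as a PPAR target of liver and proximal tubule, ran from 2.87 to 9.40 in OVE26 and from 2.85 to 6.73 in FVB. Its means were 7.54 ± 2.70 in OVE26 and 4.01 ± 1.82 in FVB, a difference of 3.53 with overlapping groups and a limma adjusted p of 0.280.

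Of 19 genes for factors known to act on Pdk4 transcription, 0 were called by limma, 12 had a difference above 0, and the median difference was 0.08. Ppara and Ppard, receptors for fatty acids, had differences of 0.17 and -0.07, and Foxo1, the insulin-restrained factor, one of 0.03. Nr3c1, the glucocorticoid receptor, was at 9.61 ± 0.09 in OVE26 and 9.83 ± 0.11 in FVB, with an adjusted p of 0.361. Ppargc1a, a coactivator of the estrogen-related receptors, was at 8.34 ± 0.34 in OVE26 and 7.07 ± 1.10 in FVB, with an adjusted p of 0.241. Esrrb and Esrrg, of that receptor family, had differences of 1.44 and 1.00, with adjusted p of 0.153 and 0.246. With averaged probe sets the Esrrb difference was 0.68. With the distal marker score as a term in the fit the Esrrg difference was -0.14. Thra, a thyroid hormone receptor, was at 7.80 ± 0.12 in OVE26 and 8.12 ± 0.14 in FVB without overlap, with an adjusted p of 0.244.

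The signals that act on these factors were read through their target genes. Of 18 genes of insulin signalling and FoxO targets, 0 were called by limma and 11 had a difference above 0, with a median of 0.03. Gadd45a, a stress gene, was at 11.38 ± 0.15 in OVE26 and 12.04 ± 0.21 in FVB, and Irs1, the insulin receptor substrate, was at 7.17 ± 0.19 in OVE26 and 7.67 ± 0.22 in FVB. Neither passed, with adjusted p of 0.0807 and 0.161, but Gadd45a passed without FVB 2 (0.0294) and in 4 other alternatives, with averaged probe sets (0.0453), ribosomal centring (0.0490), a variance trend (0.0347) and array weights (0.0391). Ccng2, a cyclin gene known as a FoxO target, had a difference of 0.47 and an adjusted p of 0.222. Txnip, a glucose-responsive gene, was at 10.59 ± 0.48 in OVE26 and 9.95 ± 0.17 in FVB, with an adjusted p of 0.262. Of 14 glucocorticoid targets, 0 were called and 13 had a difference above 0, with a median of 0.88. The metallothionein gene Mt2 was at 10.30 ± 0.62 in OVE26 and 7.68 ± 1.06 in FVB, with a limma adjusted p of 0.0668, and of 0.0477 when fitted on 1 probe set a gene. Mt1, its neighbour in the family, was at 10.41 ± 0.65 in OVE26 and 8.11 ± 0.98 in FVB, with an adjusted p of 0.0846. Without FVB 2, the FVB array with the highest distal marker score, the limma adjusted p was 0.0120 for Mt2 and 0.0123 for Mt1. Cebpd, a transcription factor, was at 7.83 ± 1.02 in OVE26 and 6.38 ± 0.11 in FVB, with an adjusted p of 0.195. Fkbp5, a co-chaperone of steroid receptors, was at 9.07 ± 0.90 in OVE26 and 7.15 ± 0.90 in FVB, with an adjusted p of 0.153, and its difference of 1.92 was 1.06 with averaged probe sets.

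Of 19 hypoxia response genes, 1 was called higher by limma, 15 had a difference above 0, and the median difference was 0.29. The called gene was Egln3, a prolyl hydroxylase that marks hypoxia-inducible factors for removal and is itself one of their targets. It was at 6.48 ± 0.32 in OVE26 and 4.96 ± 0.30 in FVB, a difference of 1.52 (SE 0.19) with a limma adjusted p of 0.0255. The call was lost without OVE26 3, OVE26 4, FVB 1, FVB 3 or FVB 4. Hk2, the inducible hexokinase, had a difference of 1.02 and an adjusted p of 0.210, and Pgk1, a glycolytic enzyme, one of 0.29 and an adjusted p of 0.252. Bnip3, a mitophagy receptor, had one of 0.53 and an adjusted p of 0.277.

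**Figure D4:**
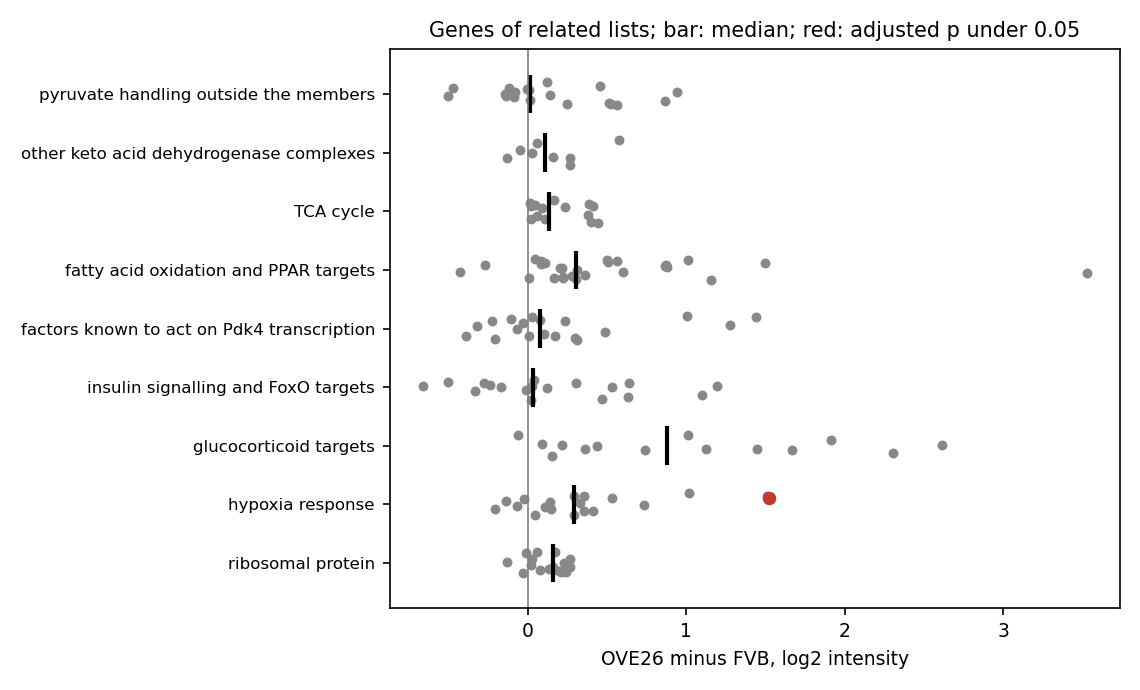
Difference in mean log2 intensity, OVE26 minus FVB, of each measured gene of the related lists, 1 row a list; vertical bars are list medians, the thin line is 0, and the 1 gene called by limma, Egln3, is in red. Medians run from 0.01 for pyruvate handling to 0.88 for glucocorticoid targets, beside 0.01 over all genes.

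Markers of other cells moved with the groups beside Pdk4. Of 29 measured markers of the later nephron, from the loop of Henle to the collecting duct, 27 had a difference above 0, 9 did not overlap with OVE26 above, and 2, Fxyd4 and Atp6v0d2, were called higher by limma. Their summed linear intensity ran from 10335 to 19654 in OVE26 and from 6381 to 16012 in FVB. Of 11 parietal epithelial markers all 11 had a difference above 0, and 4 did not overlap with OVE26 above. Among them 2, the keratin genes Krt8 and Krt18, were called higher, with sums of 3267 to 5894 in OVE26 and 1822 to 3612 in FVB. The list did not rise evenly. Cldn1, Dkk3 and Cdh6 had differences of 0.04, 0.08 and 0.17, with limma adjusted p of 0.954, 0.924 and 0.636. Of 25 macrophage markers 20 had a difference above 0, 7 did not overlap with OVE26 above, and 0 were called. Their sums were 999.8 to 3686 in OVE26 and 1053 to 1412 in FVB. Over all genes, 3.64% did not overlap with OVE26 above and 2.62% with OVE26 below. Of 25 podocyte markers 2 had a difference above 0, 8 did not overlap with OVE26 below, and 0 were called, with sums of 55317 to 69310 in OVE26 and 66729 to 75857 in FVB. When limma was fitted on 1 probe set a gene, 4 later nephron and 3 parietal markers were called higher and 1 podocyte marker lower. Those added were Slc26a4 (adjusted p 0.0349), Krt7 (0.048) and Krt19 (0.0367), all higher, and Tdrd5 (0.0462), lower. Of the markers of proximal tubule, glomerular endothelium and mesangial or smooth muscle cells, 7 of 18, 7 of 17 and 4 of 12 had a difference above 0, and 0 were called. The part of these cells in the Pdk4 difference was not tested.

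Markers of muscle and fat, tissues where Pdk4 is abundant, were read as well. Of 13 measured markers 6 had a difference above 0, with a median of -0.02 and sums of 2131 to 4388 in OVE26 and 1382 to 3124 in FVB. The muscle creatine kinase gene Ckm was at 4.87 in OVE26 and 4.85 in FVB. The fat hormone gene Adipoq was at 2.20 in OVE26 and 1.93 in FVB, below the 25th percentile in both groups. Fabp4, a fatty acid carrier of fat cells that endothelial cells and macrophages also express, was at 10.76 in OVE26 and 9.42 in FVB, with a limma adjusted p of 0.203. The sums rest mainly on Fabp4 and on Lpl, at 10.20 in OVE26 and 10.08 in FVB. No other marker of this list had a group mean above 5.4.

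A marker score was taken for each array as the mean deviation of a list's genes from their average over all arrays. The distal score ran from 0.15 to 1.28 in OVE26 and from -1.19 to -0.01 in FVB, and the parietal score from 0.09 to 0.83 in OVE26 and from -1.02 to -0.13 in FVB, so for both the groups did not overlap. The macrophage score ran from -0.25 to 0.76 in OVE26 and from -0.49 to -0.22 in FVB, and the podocyte score from -0.44 to 0.09 in OVE26 and from 0.02 to 0.30 in FVB, with overlap in both. As a description, the Pdk4 difference was 2.85 with the distal score as a term in the fit, 2.87 with the podocyte score and 3.89 with the macrophage score. Because the distal score did not overlap between the groups, such a fit cannot separate that score from the group. OVE26 2 stood apart with a proximal tubule score of -2.05, and without it the Pdk4 difference was 3.17.

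Transcripts of the sex chromosomes split the arrays across the groups. Xist exceeded the Y-linked mean in OVE26 2, 3 and 5 and in FVB 2, with Pdk4 at 9.65, 8.69 and 8.20 in those OVE26 mice and at 6.16 in that FVB mouse. It was below in OVE26 1 and 4 and in FVB 1, 3 and 4, with Pdk4 at 8.90 and 9.97 in those OVE26 mice and at 5.19, 6.30 and 5.45 in those FVB mice. With the Xist level minus the Y-linked mean as a term in the fit the Pdk4 difference was 3.37. For the X-linked members it was 0.44 for Pdk3 and 0.15 for the Pdha1 probe set 1418560_at, with limma adjusted p of 0.348 and 0.620. In OVE26 1 and 4 with FVB 1, 3 and 4, a fit chosen after the values were seen, the difference was 0.19 for Pdk3 and 0.21 for Pdha1 1418560_at, with limma adjusted p of 0.739 and 0.560.

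**Figure D5:**
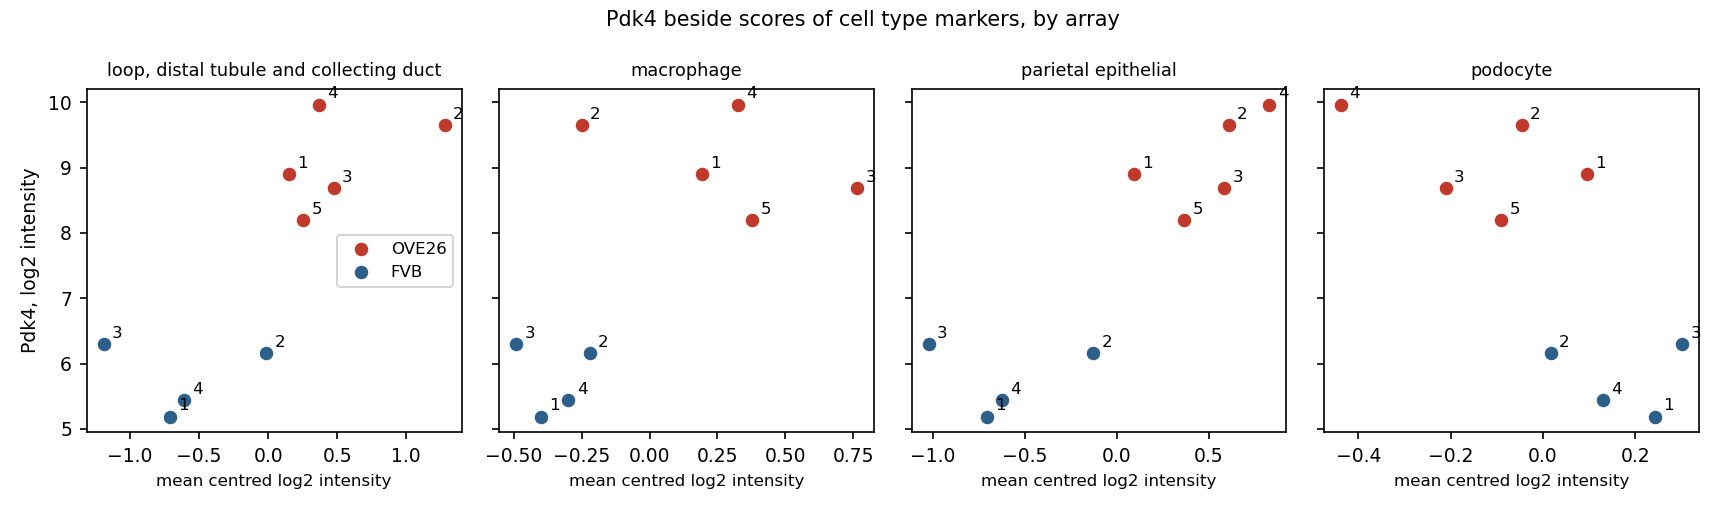
Pdk4 level (log2 intensity) against the marker score of each array, 1 panel a score, with OVE26 in red and FVB in blue, numbered by mouse; the score is the mean centred log2 intensity of the marker list. The distal scores run from 0.15 to 1.28 in OVE26 and from -1.19 to -0.01 in FVB, and the podocyte scores from -0.44 to 0.09 in OVE26 and from 0.02 to 0.30 in FVB.

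The genes most like Pdk4 within the groups were ranked by Pearson's r over the 9 arrays after each group's mean was removed, so that the group difference itself did not count. Of 11739 genes ranked, 1.57% were beyond 0.8 in either direction. With so many genes ranked on 9 arrays, these values describe those arrays only. The highest were Grsf1, a mitochondrial RNA-binding protein, at 0.97, Ctsd, the lysosomal protease cathepsin D, at 0.91, and Bag2, Cenpm and Sfxn1, each at 0.90. Spearman's rho was 0.97 for Grsf1 and 0.82 for Ctsd. The lowest were Bcs1l, an assembly factor of respiratory complex III, at -0.96, Arsi, Coq3 and Nbdy, each at -0.93, and Tcf19 at -0.92. Without OVE26 4 and OVE26 2, the arrays farthest from the median of the 9 Pdk4 deviations, these values lay between 0.82 and 0.96 for the first 5 and between -0.95 and -0.86 for the last 5. Among the members Pdp2 was the farthest from 0, at -0.58, and Pdk2 was at 0.22, Pdk3 at -0.11 and the Pdha1 probe set 1418560_at at -0.02. All 17 other probe sets of the gene set thus lay within the 0.8 limit. Of the marker scores, muscle and fat cells had an r of 0.62 and a rho of 0.45. The r was -0.52 for proximal tubule and between -0.41 and 0.37 for the remaining scores.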

How the data were processed

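RNA of sorted podocytes from 5 OVE26 and 4 FVB mice was amplified, biotin-labelled and hybridised, 1 array a mouse, per the labels' protocols. The deposited table holds the authors' processed intensity of 45101 probe sets on a linear scale, judged from its range, and log2 was taken here from the deposited values. Per the submitters' processing notes RMA and Partek were used, with versions and parameters not given in the sources used here. Precision is limited by the number of arrays.

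Leaving out 64 control probe sets, 45037 were fitted by group with limma 3.58.1 in R 4.3.3, two-sided, with Benjamini-Hochberg adjustment over all of them. The platform table gave 1 symbol to 34945 probe sets, several to 932 and none to 9160. Every member probe set was kept, and lists used the brightest probe set a gene. Members and lists were chosen with earlier results of these data known. Named are every member, of each pathway list the called genes and up to 4 with the smallest p, and the 5 genes most and the 5 least like Pdk4 among those above the 40th percentile of level. Mpc1, Dld, Pdpr, Bckdk, Ppm1k, Acot1, Cyp4a14, Ppara, Ppard, Foxo1, Nr3c1 and the marker Ckm lie outside this rule and were chosen after their values were seen. Of the cell type markers, called genes were named too. Podxl, Synpo, Fabp4 and Lpl were named for their high levels, Trpc6 for its low one, and Adipoq, Cldn1, Dkk3 and Cdh6 also lie outside this rule. The script was tested on simulated data. Scaling, filters, variance models, covariates, the replicate block and each array left out were tried as alternatives.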

Additional observations from a re-analysis of the deposited data

Results flagged for a closer look

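In 2 of 36 groups of member values, 1 array lay far from the rest of its group by Dixon's criterion. For Pdhb (1416090_at), OVE26 2 was the highest diabetic mouse at 10.16, with the next at 9.93. For Dlat (1452005_at), FVB 4 was the lowest normal mouse at 7.20, with the next at 7.62. Chance marks about 1 in 20 such groups.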

How the results depend on the processing

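The Pdk4 difference lay between 2.85 and 3.89 over the 25 alternatives, and between 3.09 and 3.53 with each array left out. None of the 17 other probe sets passed limma's threshold in any of them. Calls over all probe sets did depend on the setting. Beside 88 higher and 34 lower, there were 218 and 122 with array weights and 32 and 8 with a sex term. Ribosomal centring gave 83 lower and the proximal tubule score as a term gave 13 lower. There were 0 and 0 by limma without moderation of the variance, where unadjusted p was under 0.05 for 2706 and 2913, and 0 and 0 with the distal score (1803 and 1636 unadjusted). The macrophage score left 0 and 3 (3511 higher unadjusted) and the podocyte score 1 and 0 (2050 lower unadjusted). Leaving out 1 array gave 0 to 323 higher and 0 to 101 lower by limma: 323 and 101 without FVB 2, 49 and 21 without OVE26 1, 39 and 9 without OVE26 4, 33 and 4 without OVE26 5, 1 and 0 without FVB 1 (2361 lower unadjusted), and 0 without OVE26 3, FVB 3 or FVB 4 (2774, 2399 and 2505 higher and 2900, 2574 and 2516 lower unadjusted).

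With the replicate number as a block, which the numbers do not bear out as a pairing, limma called 0 and 0 (2550 and 2803 unadjusted), and the Pdk4 difference was 3.53. Deviations of same-numbered mice correlated at 0.11, 0.02, -0.18 and -0.01. Of 8 mice with a number in both groups, 1 correlated best with its own number. The block covers OVE26 1 to 4 and the 4 FVB mice.

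In an alternative chosen after seeing the data, the fit kept OVE26 1 and 4 and FVB 1, 3 and 4, where Xist lay below the Y-linked mean. There limma called 0 and 0 (2712 and 2733 unadjusted), the Pdk4 difference was 3.79, and Pdp1 1434228_at was at -0.17.

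Several differences changed sign, none of the reversed values past the threshold. Pdp1 1434228_at, 0.0084 as reported, was -0.0019 when probe sets were averaged, -0.0058 with quantile normalization, -0.12 with ribosomal centring, -0.068 with array weights, -0.057 with the macrophage score and -0.090 with the podocyte score, and -0.10 to 0.086 with an array left out. Pdp1 1438201_at, -0.012 as reported, was 0.060 with the replicate block, 0.11 with the sex term, 0.092 with the distal, 0.31 with the macrophage and 0.056 with the podocyte score, and -0.15 to 0.10 with an array left out. Leaving out 1 array gave -0.029 to 0.23 for Pdk1 1434974_at and -0.035 to 0.12 for Dlat 1452005_at. Ribosomal centring turned Pdk1 1434974_at to -0.013, Pdha1 1449137_at to -0.032, Pdhb 1416090_at to -0.063, Pdhb 1448214_at to -0.041 and Dlat 1452005_at to -0.053. The distal score turned Pdk1 1435836_at to -0.13, Pdk1 1434974_at to -0.23, Pdp2 to 0.062, Pdhb 1416090_at to -0.20, Dlat 1426265_x_at to -0.20, Dlat 1426264_at to -0.18, Slc16a7 from 0.94 to -0.39 and Esrrg from 1.00 to -0.14. The macrophage score turned Pdk2 to 0.39, Pdhx to -0.089, Dhtkd1 to -0.056 and Bckdha to 0.11, and the podocyte score turned Pdk2 to 0.20 and Pdhx to -0.020. Averaging probe sets turned Dlst to -0.0069. The cause was not tested. Among list genes, Egln3 had an adjusted p of 0.0801 with the block, 0.0565 with the sex term, 0.475 with the distal, 0.261 with the podocyte and 0.156 with the macrophage score, 0.118 without moderation of the variance and 0.143 in the alternative chosen after seeing the data, and its difference lay between 1.15 and 1.76 throughout. Outside their reported fit, Angptl4, Acaa2, Mt1, Mt2, Gadd45a, Ldha, Ldhb and Slc16a7 passed the threshold in 22 combinations of gene and alternative.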
